A study of Mus musculus with 21 samples.

Results

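Spleen CD11b+ cells of control mice were compared with LSK cells of the bone marrow (BM) of the same control genotypes. The comparison used 8 of the 21 RNA-seq libraries of the series, chosen by their labels alone: 4 spleen CD11b+ libraries and 4 LSK libraries, each with 2 libraries of MxCre mice and 2 of Ptpn11D61Y/+ mice. MxCre mice carry the Cre recombinase under the interferon-inducible Mx1 promoter together with normal Ptpn11. Ptpn11D61Y/+ mice carry 1 mutant Ptpn11 allele that a stop cassette keeps silent, and no Cre, so that 1 working allele remains. Mice of both genotypes had received poly I:C according to the study's methods, while the labels give no treatment, and age is not given in the labels. The other libraries are 4 of marrow CD11b+ cells from the same control genotypes and 9 of terminally ill MxCre;Ptpn11D61Y/+ mice, called S3, in which Cre has removed the stop cassette and the mutant SHP2 is made. The CD11b+ cells were taken with antibody-coated magnetic beads in 2 rounds on columns, and the LSK cells by depletion of lineage-positive cells and a sort for Sca-1 and Kit. Either fraction can therefore hold several cell types.

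LSK cells are the lineage-negative, Sca-1-positive, Kit-positive cells of the marrow, which include the blood stem cells and their multipotent offspring. CD11b, encoded by Itgam, pairs with the beta 2 chain to form an adhesion and complement receptor of neutrophils, monocytes, macrophages and some dendritic cells and natural killer (NK) cells. On the way from stem cell to myeloid cell, the genes of self-renewal are shut off and granule, phagocytosis and antigen presentation genes are switched on. The primary granule proteins of neutrophils are made early, at the promyelocyte stage, and those of the later granules afterwards. In the spleen, macrophages of the red pulp take up old erythrocytes and recycle their iron.

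The total count was 82765577 and 71175951 in the LSK MxCre libraries and 104509425 and 83304059 in the LSK Ptpn11D61Y/+ libraries. It was 52965938 and 76587795 in the spleen MxCre libraries and 56121332 and 62725638 in the spleen Ptpn11D61Y/+ libraries. Below, values by library follow this order: MxCre replicates 1 and 2, then Ptpn11D61Y/+ replicates 1 and 2. The number of genes with at least 1 count was 23746, 22912, 24220 and 23649 in LSK cells and 14641, 19054, 20569 and 20773 in spleen CD11b+ cells. Every spleen library was below every LSK library, and a two-sided exact permutation test of 4 libraries against 4 gave p = 0.0286, the smallest it can give (adjusted over 4 library measures, p = 0.114). Spleen MxCre replicate 1 stood apart, with 876 genes at 1 to 9 counts against 4213 to 5067 in the other spleen libraries. Mitochondrial genes held 0.727%, 0.597%, 0.764% and 0.823% of the counts in LSK cells and 0.598%, 0.317%, 3.79% and 0.641% in spleen CD11b+ cells, so that spleen Ptpn11D61Y/+ replicate 1 was far above the rest. That library was also the only one of the 8 with Xist at 6.43 log2 CPM (counts scaled to the library's total), and its counts of the Y-linked genes Ddx3y, Eif2s3y, Kdm5d and Uty were all 0, whereas LSK Ptpn11D61Y/+ replicate 1 had Y-linked transcripts. The 2 libraries with this number were thus not from 1 animal. The study's methods name several MxCre mice as the source of the CD11b+ RNA. Neither the methods nor the labels tie the libraries of a group to separate animals. Spleen Ptpn11D61Y/+ replicate 2 held Y-linked transcripts (Ddx3y at 4.99 log2 CPM on the scale of the 12 control libraries with marrow). The 2 spleen libraries of this genotype were thus not from 1 animal. The p-values measure the spread between libraries, which may be technical in the other groups.

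A gene was called when its Benjamini-Hochberg adjusted p in the quasi-likelihood test of edgeR was under 0.05 over all 18552 genes tested, with control genotype as a covariate. Levels are log2 CPM after TMM normalization with a prior count of 2, so that a count of 0 reads as -5.33. Differences are log2 fold changes of spleen CD11b+ over LSK cells with their standard error (SE). Of all genes tested 56.9% were called, 4985 (26.9%) higher and 5580 (30.1%) lower in spleen CD11b+ cells, and the median difference of all genes was -0.19. Every spleen library lay above every LSK library for 24.5% of the genes and below for 33.3%. These shares are the background for each count below. The split depends on the scaling: with library size alone, 2763 genes were called higher and 8547 lower, and the median of all genes moved to -1.05.

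Of the genes for the markers used to isolate the cells, Itgam and Kit differed between the cell types as the sorts did, while Ly6a did not. Itgam (chr7:128062640-128118491, plus strand, GRCm38) was at 6.97, 6.80, 5.15 and 5.11 log2 CPM in LSK cells and at 8.35, 9.61, 7.39 and 8.18 in spleen CD11b+ cells, a log2 difference of 2.47 (SE 0.33). The groups did not overlap, but Itgam reads were far from absent in LSK cells. Kit (chr5:75574916-75656722, plus strand), the receptor for stem cell factor, was at 8.89, 8.88, 9.05 and 9.19 in LSK cells and at 4.48, 4.17, 6.19 and 6.34 in spleen CD11b+ cells, a difference of -3.70 (SE 0.39). Ly6a, which encodes Sca-1, was at 5.80, 5.54, 6.05 and 6.21 log2 CPM in LSK cells and at 4.26, 3.21, 7.46 and 7.12 in spleen CD11b+ cells. The MxCre spleen libraries were below and the Ptpn11D61Y/+ spleen libraries above every LSK library, and the difference over both genotypes was -0.33 (SE 0.65, adjusted p = 0.681). Ptpn11 itself (chr5:121130533-121191397, minus strand), which encodes SHP2, was at 6.92, 6.99, 6.13 and 6.05 log2 CPM in LSK cells and at 4.03, 5.42, 6.12 and 5.29 in spleen CD11b+ cells. It missed the threshold (difference -1.20, SE 0.46, adjusted p = 0.0525), with spleen Ptpn11D61Y/+ replicate 1 among the LSK values, and without that library the difference was -1.58 and passed, as it did without LSK Ptpn11D61Y/+ replicate 2 (-1.45) and in DESeq2 (-1.35).

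Stem and progenitor cell genes were far lower in spleen CD11b+ cells. Of 30 such markers 25 were called lower, 1 higher and 4 not called, with a median difference of -4.54. In these bulk samples, fewer cells of a type and less RNA per cell cannot be told apart. Adgrg1, an adhesion receptor of stem cells and the member of the list with the highest CPM in LSK cells, was at 10.68, 10.77, 10.96 and 10.92 log2 CPM in LSK cells and at 0.41, 0.40, 2.21 and 2.09 in spleen CD11b+ cells. This is a 748-fold difference (log2 -9.55, SE 0.46, adjusted p = 2.01e-05) with no overlap. Cd34, a sialomucin of progenitor cells, was at 8.89, 9.10, 8.52 and 8.70 against 2.58, 0.87, 0.74 and 1.92 (log2 -7.11, SE 0.50). Mecom (chr3:29951296-30548008, minus strand), a transcription factor of long-term stem cells, had 4155, 3360, 8994 and 5632 counts in the LSK libraries and 1, 0, 1 and 1 in the spleen libraries. The ratio of the summed counts, scaled for the TMM-adjusted library sizes, was 2993-fold, with a 95% counting interval from 1024 to 14517 that covers counting error only. Hoxa9, a homeobox gene of early progenitors, had 0, 0, 2 and 7 counts in the spleen libraries and 6.07, 6.06, 5.85 and 5.92 log2 CPM in LSK cells. Meis1, its partner in DNA binding, was at 7.11, 7.12, 7.34 and 7.29 against -0.10, 1.88, 2.24 and 2.33 log2 CPM.

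Myb, a transcription factor of proliferating progenitors, fell from 8.46, 8.41, 8.51 and 8.25 log2 CPM to 2.93, 3.64, 3.03 and 2.93 (log2 -5.26, SE 0.25). Other members differed less. Flt3, the receptor of lymphoid-primed progenitors that dendritic cells also carry, was at 8.68, 8.82, 7.65 and 8.08 against 6.89, 5.42, 6.63 and 7.29 (log2 -1.65, SE 0.45, adjusted p = 0.014). The groups did not overlap, and the spleen libraries kept levels above 5 log2 CPM. Cd48, a surface glycoprotein of most mature blood cells that long-term stem cells lack, was the member called higher, at 5.77, 6.07, 5.48 and 5.41 in LSK cells and 6.56, 6.72, 6.80 and 7.49 in spleen CD11b+ cells (log2 1.22, SE 0.27). Ly6a, Slamf1, Esam and Prom1 were not called, although Slamf1 (-1.88) and Esam (-1.05) were without spleen MxCre replicate 1. With library size alone, Cd48 was no longer called (0.36).

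**Figure D1:**
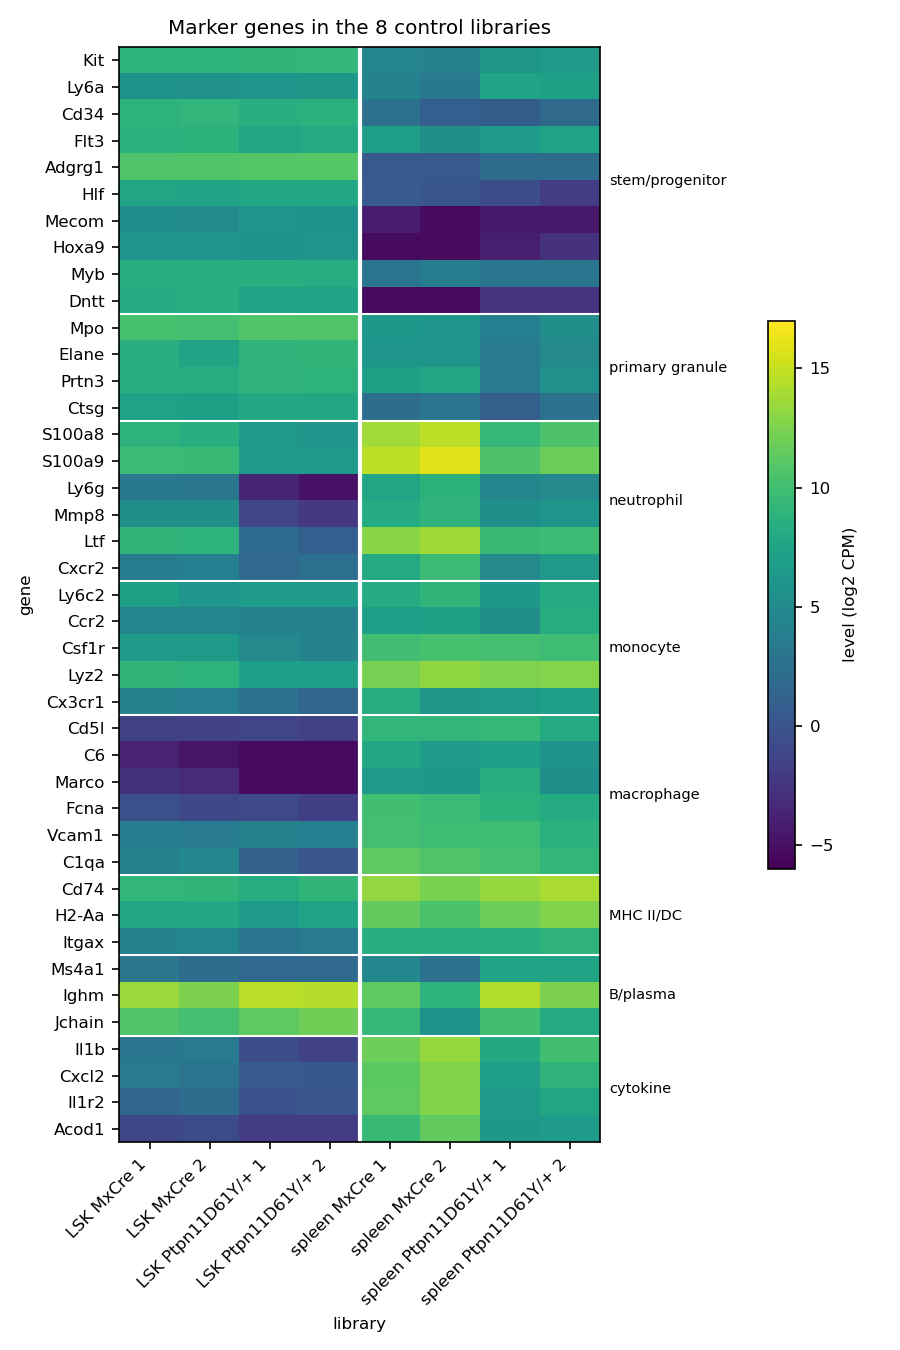
Levels (log2 CPM, TMM, prior count 2) of selected list members in each of the 8 control libraries, with genes in rows and libraries in columns and the color giving the level. Stem cell genes such as Adgrg1 are high in the 4 LSK columns and neutrophil, macrophage and cytokine genes are high in the 4 spleen columns, with lower neutrophil levels in both Ptpn11D61Y/+ spleen columns.

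The genes with the largest negative differences by a fixed rule (the 12 with the largest change among called protein-coding genes with a median of at least 6 log2 CPM in the higher cell type and no overlap of libraries) included Dntt, Nwd1, Muc13, Slc22a3, Angpt1, Adgrg1, Adgrl4, Tfr2, Afap1l1, Hlf and Mmrn1. Dntt, the terminal transferase that adds bases at antigen receptor joints in lymphoid progenitors, had 32541, 30047, 22025 and 17871 counts in LSK cells and 0, 0, 9 and 8 in spleen CD11b+ cells. Angpt1, a ligand of the TIE2 receptor, had 19418, 17326, 35811 and 23752 counts against 0, 1, 51 and 28. All counts above 1 in spleen CD11b+ cells for both genes came from the Ptpn11D61Y/+ libraries. The fitted fold changes of such genes depend on the prior count of the fit, which is edgeR's default and not the 2 used for levels. Hlf, a transcription factor of stem cells, was at 7.49, 7.45, 7.75 and 7.76 log2 CPM against 0.59, 0.17, -0.56 and -1.84, a difference of -7.97 (SE 0.53).

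Of the neutrophil genes, mature markers were mostly higher in spleen CD11b+ cells, while primary granule genes were mixed. Of 20 mature neutrophil markers 19 were called higher in spleen CD11b+ cells and 1, Padi4, was not called (median difference 5.26). The list of 8 primary granule genes also counts Cebpe, a transcription factor that starts secondary granule genes. Of the 8, 4 were called lower (Mpo, Elane, Prtn3 and Ctsg), 1 higher (Cebpe) and 3 not called, with a median of -2.11. In the MxCre libraries alone this median was -0.45, beside -0.32 for all genes. In the Ptpn11D61Y/+ libraries alone it was -3.79, beside -0.09 for all genes. Without spleen Ptpn11D61Y/+ replicate 2 only 3 of the 8 were called. S100a9, a subunit of calprotectin, was at 9.74, 9.52, 6.72 and 6.34 log2 CPM in LSK cells and at 14.69, 16.01, 10.59 and 11.83 in spleen CD11b+ cells, 40.3-fold higher (log2 5.33, SE 0.52, adjusted p = 0.000186). Its mean share of the counts in the 4 spleen libraries was 1.44%, but the shares by library were 1.76%, 3.53%, 0.152% and 0.320%. Actb was above it in every spleen library but MxCre replicate 2, at 2.43%, 0.822% and 0.888%, and so were Cd74 (1.08% and 1.54%), Tmsb4x and Fth1 in both Ptpn11D61Y/+ libraries. In both cell types the MxCre libraries were above the Ptpn11D61Y/+ libraries, and within each genotype the spleen libraries were above the LSK libraries. Ly6g, a surface marker of mature neutrophils, had 1125, 847, 8 and 1 counts in LSK cells and 6866, 17524, 1184 and 1515 in spleen CD11b+ cells. Ltf, lactoferrin of the secondary granules, was at 9.02, 8.84, 2.01 and 0.83 log2 CPM against 12.95, 13.68, 9.57 and 9.75 (log2 6.27, SE 0.94). Mmp9, the gelatinase of the tertiary granules, was at 6.66, 6.64, -1.36 and -1.22 against 10.22, 11.20, 6.67 and 8.08 (log2 6.45, SE 1.20). Without the genotype term Ltf, Mmp8 and Mmp9 were no longer called, at 4.53, 3.37 and 4.28.

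Mpo, myeloperoxidase, was at 10.33, 10.14, 10.74 and 10.71 log2 CPM in LSK cells and at 6.30, 6.06, 3.90 and 5.35 in spleen CD11b+ cells, a 31.8-fold difference (log2 -4.99, SE 0.54, adjusted p = 0.000278). Ctsg, the granule protease cathepsin G, was at 7.36, 7.11, 7.87 and 7.72 against 2.29, 2.86, 0.93 and 2.64 (log2 -5.21, SE 0.47). Elane, neutrophil elastase, was at 8.47, 7.41, 8.92 and 9.02 against 6.08, 5.96, 3.54 and 4.86 (log2 -3.32, SE 0.65). No spleen library reached an LSK library for these 3 genes. Prtn3, proteinase 3, was at 8.43, 8.33, 8.92 and 8.89 against 7.04, 7.52, 3.53 and 5.51 (log2 -2.57, SE 0.74), and its call was lost without spleen Ptpn11D61Y/+ replicate 2 (-2.35) and in the MxCre libraries alone (-1.08). Cebpe, the transcription factor that starts secondary granule genes, was at 4.11, 3.44, 3.61 and 3.28 against 7.37, 7.84, 3.27 and 4.81 (log2 2.31, SE 0.72). Spleen Ptpn11D61Y/+ replicate 1 lay just below every LSK library and the other spleen libraries above, and the call was lost without either LSK MxCre library (1.89 and 1.72) or without spleen Ptpn11D61Y/+ replicate 2 (2.60).

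Promoter sequences were examined because Mpo, Elane, Prtn3 and Ctsg were called lower while most mature neutrophil markers were called higher, and PU.1, the ETS factor encoded by Spi1, is known to act at many promoters of the myeloid lineage. The letters GAGGAAGT, the core that PU.1 binds, were searched on both strands in the RefSeq promoter table of GRCm38.p6 (250 bases before to 50 after each start). Only the 250 bases before each start were searched. The windows of 60 bases below, all on the plus strand and upstream of the start, are shown because they hold these letters (in capitals, ACTTCCTC when the match is on the other strand) in 3 genes called higher and 3 called lower in spleen CD11b+ cells. The higher genes are S100a8 at chr3:90668873-90668932, Ly6g at chr15:75155201-75155260 and Mmp8 at chr9:7558182-7558241. The lower genes are Mpo at chr11:87793534-87793593, Elane at chr10:79886201-79886260 and Prtn3 at chr10:79879546-79879605.
S100a8: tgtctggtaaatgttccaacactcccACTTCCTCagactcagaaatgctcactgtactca
Ly6g: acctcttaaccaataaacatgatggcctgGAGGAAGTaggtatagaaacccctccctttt
Mmp8: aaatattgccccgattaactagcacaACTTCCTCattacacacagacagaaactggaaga
Mpo: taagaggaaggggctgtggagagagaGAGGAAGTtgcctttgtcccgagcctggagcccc
Elane: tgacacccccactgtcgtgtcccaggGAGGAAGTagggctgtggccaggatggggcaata
Prtn3: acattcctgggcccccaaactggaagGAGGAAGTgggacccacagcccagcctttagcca
These letters were in 2.79% of the 27025 genes of the table, where a gene counted when any of its promoters held them. They were in 3 of the 17 mature neutrophil genes and 3 of the 6 primary granule genes that had a promoter in the table. Among protein-coding genes with a promoter they were in 4.44% of those called higher and 2.08% of those called lower. The letters TTGCNNAA, a site of C/EBP factors, were in 10.8% of all genes of the table, in 7 of the 17 and in 1 of the 6. A match is a description of the letters in the window.

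Spi1 was at 6.68, 6.87, 6.15 and 6.28 log2 CPM in LSK cells and at 9.47, 10.74, 8.68 and 9.41 in spleen CD11b+ cells (log2 3.17, SE 0.35, adjusted p = 0.000301). Cebpb, a C/EBP factor of mature and activated myeloid cells, was at 3.21, 3.37, 2.51 and 2.40 against 12.69, 12.11, 5.94 and 8.69 (log2 7.29, SE 1.11). Both rose with no overlap, and the spleen values of Cebpb spread far more than those in LSK cells. Of 36 lineage transcription factors 10 were called higher and 20 lower, with a median difference of -1.83. Among those lower, Erg, an ETS factor of stem cells, was at 7.22, 7.36, 7.25 and 7.38 against 0.92, 2.42, 0.66 and -0.07 log2 CPM. Tal1, a basic helix-loop-helix factor needed to form blood stem cells, was at 6.75, 6.79, 7.07 and 6.88 against 2.31, 2.63, 2.88 and 0.30. Gata2, a zinc finger factor of stem and mast cells, was at 7.65, 7.57, 8.26 and 8.17 against 4.56, 1.75, 2.33 and 4.70. Runx1, a factor used throughout blood formation, was at 6.68, 6.82, 6.50 and 6.56 against 7.06, 7.14, 5.35 and 6.24, and was not called (log2 -0.16, SE 0.28, adjusted p = 0.648).

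Monocyte and macrophage genes were higher in spleen CD11b+ cells. Of 20 monocyte markers 18 were called higher and 1, Spn, lower (median 4.42). Of 16 red pulp macrophage markers 14 were called higher and none lower (median 5.85). Csf1r, the receptor for the macrophage growth factor, was at 6.49, 6.51, 4.83 and 4.29 log2 CPM in LSK cells and at 9.91, 10.33, 10.18 and 9.86 in spleen CD11b+ cells (log2 4.54, SE 0.45, adjusted p = 0.000194). Cd14, a receptor for lipopolysaccharide, was at 1.85, 1.89, 0.74 and 0.29 against 8.68, 10.62, 6.34 and 7.19 (log2 7.21, SE 0.67). The spleen libraries were close together for Csf1r and spread over more than 4 log2 units for Cd14, with the MxCre libraries at the top. Cd5l, a protein secreted by tissue macrophages (chr3:87357881-87371073, plus strand), was at -1.45, -1.44, -1.19 and -1.65 log2 CPM in LSK cells and at 9.15, 9.14, 9.44 and 8.08 in spleen CD11b+ cells. The difference was 1492-fold (log2 10.54, SE 0.45, adjusted p = 1.65e-05). Vcam1, an adhesion protein of red pulp macrophages, was at 3.65, 3.46, 4.13 and 3.93 against 10.18, 9.86, 9.88 and 8.68 (log2 5.92, SE 0.41). Hmox1, the enzyme that breaks down heme, was at 4.43, 3.97, 3.56 and 3.87 against 10.62, 10.92, 11.74 and 9.85 (log2 6.96, SE 0.53). None of these 3 genes overlapped between the cell types. Cd163, the receptor for haptoglobin-bound hemoglobin, was not called, at 4.55, 4.52, 4.37 and 4.66 against 5.99, 5.07, 5.22 and 4.14 (log2 0.66, SE 0.33, adjusted p = 0.114), but was called without spleen Ptpn11D61Y/+ replicate 2 (0.92). Siglec1 was not called either.

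Antigen presentation genes followed the same direction. Of 18 genes of MHC class II and dendritic cells 15 were called higher and none lower in spleen CD11b+ cells (median 4.15), and Xcr1, Clec9a and Siglech were not called. Cd74, the invariant chain that escorts MHC class II, was at 9.11, 9.08, 8.24 and 9.0 log2 CPM in LSK cells and at 13.25, 12.42, 13.42 and 14.10 in spleen CD11b+ cells (log2 4.46, SE 0.45, adjusted p = 0.000209). Itgax, the CD11c integrin of dendritic cells, was at 4.18, 4.53, 2.96 and 3.46 against 8.50, 8.35, 8.51 and 8.94 (log2 4.78, SE 0.38). Both groups were apart for these genes, and the spleen libraries of Itgax lay within 1 log2 unit of each other. Xcr1, the chemokine receptor of cross-presenting dendritic cells, was at 0.70, 0.64, 1.31 and 2.82 against 2.03, -1.03, 3.55 and 1.92 (log2 0.62, SE 0.69, adjusted p = 0.468). Irf8, a factor of monocyte and dendritic cell fate, was at 6.61, 6.67, 6.45 and 6.38 against 7.21, 7.03, 8.89 and 8.74 (log2 1.44, SE 0.40), and its call was lost without either LSK Ptpn11D61Y/+ library (1.19 and 1.16).

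**Figure D2:**
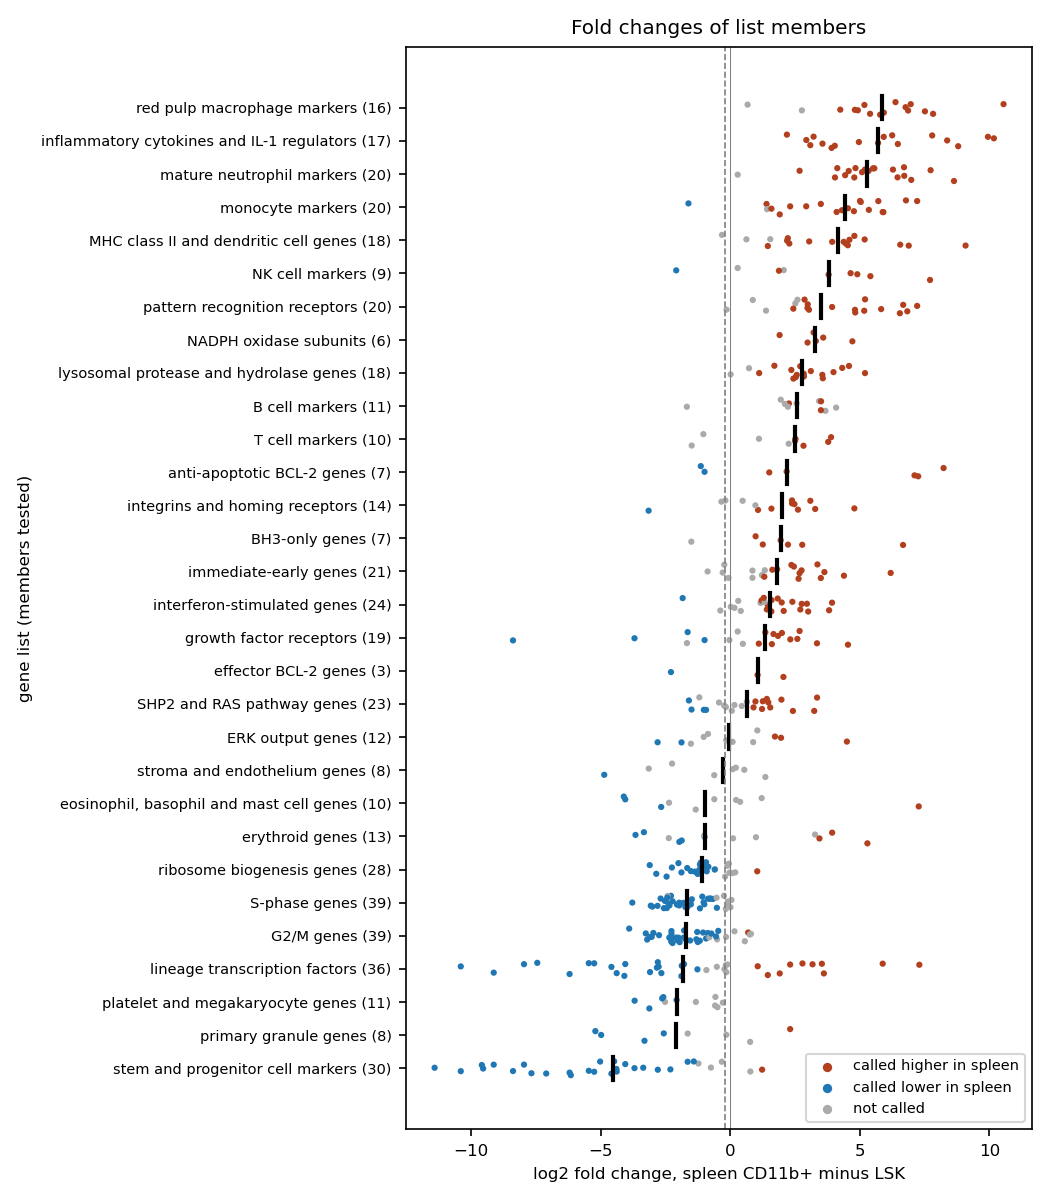
Log2 fold changes of spleen CD11b+ over LSK cells for each tested member of the gene lists, one point per gene, with a black bar at the list's median and a dashed line at the median of all genes (-0.19). The medians run from -4.54 for stem and progenitor cell markers to 5.85 for red pulp macrophage markers.

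The genes with the largest positive differences by the same rule were C6, Pla2g2d, Marco, Cd5l, Fcna, Acod1, Adamdec1, Il1b, Clec4n, Il1r2, Pla2g7 and Cxcl2. C6, a component of the terminal complement pathway, had 6, 1, 0 and 0 counts in LSK cells and 7124, 4313, 6837 and 2904 in spleen CD11b+ cells. Marco, a scavenger receptor of macrophages, had 15, 8, 0 and 0 counts in LSK cells and 2919, 3199, 20170 and 2360 in spleen CD11b+ cells. Pla2g2d, a secreted phospholipase A2, had 1, 3, 9 and 9 counts against 1660, 1915, 42214 and 6381. For Marco and Pla2g2d spleen Ptpn11D61Y/+ replicate 1 held the most counts by far. Fcna, the lectin ficolin A, was at -0.38, -1.05, -0.94 and -1.69 log2 CPM against 10.001, 9.71, 8.81 and 8.15 (log2 10.23, SE 0.44). Acod1, the enzyme that makes itaconate in activated macrophages, was at -1.03, -0.82, -1.89 and -1.93 against 9.49, 11.46, 6.22 and 6.61 (log2 10.17, SE 1.02).

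All 17 inflammatory cytokines and IL-1 regulators tested were called higher in spleen CD11b+ cells (median 5.70). Il1b (chr2:129364570-129371139, minus strand) was at 3.07, 3.53, -0.59 and -1.57 log2 CPM in LSK cells and at 11.91, 13.35, 7.95 and 10.05 in spleen CD11b+ cells, 983-fold higher (log2 9.94, SE 0.78, adjusted p = 8.72e-05). Its antagonist Il1rn was at 1.10, 1.57, -1.68 and -2.71 against 8.35, 9.35, 5.99 and 5.52 (log2 7.79, SE 0.43). The decoy receptor Il1r2 was at 1.55, 2.15, -0.22 and 0.03 against 11.34, 12.60, 6.57 and 7.62 (log2 8.79, SE 0.88). The agonist, its antagonist and its decoy thus rose together, and for all 3 the MxCre libraries were above the Ptpn11D61Y/+ libraries in both cell types. Cxcl2, a chemokine that draws neutrophils, was at 3.49, 2.87, 0.54 and 0.36 against 11.23, 12.66, 6.79 and 8.95 (log2 8.37, SE 0.72). Tnf was at 4.78, 4.43, 3.30 and 3.73 against 9.62, 10.09, 5.28 and 6.57 (log2 3.90, SE 0.66). Il6 had 41, 16, 98 and 164 counts in LSK cells and 802, 144, 97 and 588 in spleen CD11b+ cells, and on the log2 CPM scale the lowest spleen library (0.83) lay close above the highest LSK library (0.61). Its call (log2 4.03, SE 1.09) was lost without LSK MxCre replicate 1 (3.66) or spleen Ptpn11D61Y/+ replicate 2 (4.20).

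Genes that sense and kill microbes moved with them. Of 20 pattern recognition receptors and their adaptors tested 15 were called higher and none lower (median 3.48), and Clec6a was too low to be tested. Tlr2, a receptor for bacterial lipoproteins, was at 3.81, 3.98, 3.35 and 3.18 log2 CPM against 9.34, 10.31, 6.14 and 7.35 (log2 4.81, SE 0.63). Tlr4, the lipopolysaccharide receptor, was not called, at 2.92, 2.87, 3.51 and 3.23 against 3.29, 4.96, 3.81 and 3.46 (log2 0.86, SE 0.42, adjusted p = 0.109). With 1 library left out its difference ran from 0.32 to 1.07. Tyrobp, the signaling adaptor DAP12, was at 5.88, 5.92, 4.89 and 5.18 against 10.52, 11.95, 9.25 and 10.30 (log2 5.16, SE 0.45). All 6 subunits of the NADPH oxidase, which makes superoxide, were called higher (median 3.25). Its membrane subunit Cybb was at 6.77, 6.44, 5.04 and 4.73 against 9.52, 9.59, 9.01 and 9.20 (log2 3.58, SE 0.32). Of 18 lysosomal protease and hydrolase genes 16 were called higher and none lower (median 2.76), while Lamp2 and Gusb were not called. Ctss, the cathepsin that trims the invariant chain, was at 6.17, 6.15, 5.52 and 5.79 against 9.99, 10.23, 10.17 and 10.49 (log2 4.32, SE 0.26), with little spread within the spleen libraries.

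Interferon-stimulated genes were mostly higher as well, with 16 of 24 called higher and 1, Ifi44, lower (median 1.51). Isg15, a ubiquitin-like protein, was at 2.74, 3.12, 2.42 and 2.20 log2 CPM in LSK cells and at 6.40, 7.83, 5.53 and 5.62 in spleen CD11b+ cells (log2 3.81, SE 0.39). Irf7, which amplifies type I interferon, was at 4.68, 5.21, 4.32 and 4.35 against 6.86, 8.05, 6.96 and 7.27 (log2 2.70, SE 0.29). Neither gene overlapped between the cell types. The call of Ifi44 (log2 -1.84, SE 0.58) was lost without spleen MxCre replicate 1 (-1.78), LSK MxCre replicate 2 (-1.61), spleen MxCre replicate 2 (-1.57) or LSK Ptpn11D61Y/+ replicate 1 (-1.92).

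Of 14 integrins and homing receptors 9 were called higher and 1, Itga6, lower (median 1.98). Itgb2, the beta 2 chain that pairs with CD11b, was at 6.70, 6.50, 5.63 and 5.97 log2 CPM in LSK cells and at 8.51, 9.85, 9.01 and 9.48 in spleen CD11b+ cells (log2 3.08, SE 0.35). Itga6, a laminin receptor chain of stem cells, was at 6.37, 6.52, 7.01 and 6.92 against 2.78, 3.19, 4.59 and 3.35 (log2 -3.16, SE 0.31). Itga4, the alpha 4 chain that binds VCAM1, was close in both, at 7.40, 7.42, 7.10 and 7.03 against 6.99, 7.12, 6.96 and 7.09 (log2 -0.19, SE 0.16, adjusted p = 0.319). Among 19 growth factor receptors 11 were called higher and 4 lower (Kit, Flt3 and Epor among them). Their median was 1.35, but 0.45 with library size alone and 0.85 to 1.63 with 1 library left out. Csf3r, the G-CSF receptor, was at 8.06, 7.99, 7.50 and 7.48 against 11.37, 12.82, 7.75 and 9.11, so that spleen Ptpn11D61Y/+ replicate 1 fell among the LSK libraries. Its call (log2 2.67, SE 0.78) was lost without LSK MxCre replicate 1 (2.14) or 2 (2.12). Csf2rb, the shared beta chain of the GM-CSF, IL-3 and IL-5 receptors, was at 6.21, 6.40, 5.58 and 6.16 against 7.01, 8.86, 6.87 and 7.46 (log2 1.6, SE 0.40).

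Proliferation genes were lower in spleen CD11b+ cells. Of 39 S-phase genes 31 were called lower and none higher (median -1.66), and of 39 G2/M genes 31 were called lower and 1, Bub3, higher (median -1.72). Mcm2, part of the replicative helicase, was at 7.99, 8.15, 7.86 and 7.88 log2 CPM in LSK cells and at 5.35, 4.78, 6.38 and 5.68 in spleen CD11b+ cells (log2 -2.39, SE 0.32). Top2a, the topoisomerase of dividing cells, was at 8.66, 8.81, 8.47 and 8.36 against 6.05, 6.20, 6.66 and 6.26 (log2 -2.28, SE 0.22, adjusted p = 0.000168). Mki67 was at 8.66, 8.61, 8.13 and 8.0 against 5.96, 6.81, 6.56 and 6.06 (log2 -1.96, SE 0.25). These 3 genes did not overlap, but all remained above 4 log2 CPM in every spleen library. Pcna, the sliding clamp of DNA polymerase that also serves DNA repair, was at 7.79, 7.87, 7.80 and 7.76 against 7.69, 7.87, 7.39 and 7.83 and was not called (log2 -0.10, SE 0.17, adjusted p = 0.645). The call of Bub3 (log2 0.68, SE 0.24, adjusted p = 0.0403) was lost when any single library other than spleen MxCre replicate 2 or spleen Ptpn11D61Y/+ replicate 1 was left out, with differences from 0.47 to 0.75. Of 28 ribosome biogenesis genes 20 were called lower and 1, Nhp2, higher (median -1.11). Myc, which drives many of them, was at 8.10, 8.45, 8.02 and 8.07 against 4.56, 4.49, 5.78 and 6.63 (log2 -2.77, SE 0.45). Ncl, the nucleolar protein nucleolin, was at 9.82, 9.88, 9.80 and 9.82 against 8.60, 8.65, 9.51 and 9.12 (log2 -0.85, SE 0.23).

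The BCL-2 family sets the threshold for mitochondrial cell death: its anti-apoptotic members hold the BH3-only proteins and the effectors BAX and BAK in check. Of 7 anti-apoptotic genes 5 were called higher and 2 lower in spleen CD11b+ cells (median 2.17). Mcl1 was at 8.82, 8.63, 8.52 and 8.37 log2 CPM in LSK cells and at 11.22, 12.01, 9.22 and 10.28 in spleen CD11b+ cells, 4.50-fold higher (log2 2.17, SE 0.43, adjusted p = 0.00356). Bcl2l1, which encodes BCL-XL, was at 4.69, 4.78, 4.67 and 4.53 against 6.25, 7.24, 5.80 and 5.12 (log2 1.5, SE 0.34). In both genes the groups were apart and the MxCre spleen libraries were highest. Bcl2 moved the other way, at 5.95, 6.05, 6.22 and 6.03 against 5.35, 4.02, 5.28 and 5.33 (log2 -1.0, SE 0.28, adjusted p = 0.0159). Bcl2a1a, Bcl2a1b and Bcl2a1d, near-identical copies between which reads can be split uncertainly, were called higher by 7.25, 8.23 and 7.11. Bcl2l2, which encodes BCL-W, was at 4.15, 4.16, 4.31 and 4.28 against 2.35, 2.24, 4.40 and 3.01 (log2 -1.14, SE 0.41), with spleen Ptpn11D61Y/+ replicate 1 above the LSK libraries. Its call was lost without either LSK MxCre library (both -1.03), either spleen MxCre library (-0.98 and -0.94) or spleen Ptpn11D61Y/+ replicate 2 (-1.02).

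Most pro-apoptotic members were also called higher. Of 7 BH3-only genes tested 6 were called higher and none lower (median 1.94), Bik was not called, and Hrk was too low to be tested. Of the 3 effectors Bax and Bak1 were called higher and Bok lower. Pmaip1, which encodes NOXA, an antagonist of MCL-1, was at 3.63, 3.51, 2.44 and 2.58 log2 CPM in LSK cells and at 10.57, 9.86, 8.17 and 9.72 in spleen CD11b+ cells, 101-fold higher (log2 6.66, SE 0.43, adjusted p = 5.1e-05). Bcl2l11, which encodes BIM, was at 4.63, 4.54, 4.26 and 4.19 against 6.54, 7.61, 5.71 and 5.29 (log2 1.94, SE 0.35). Bbc3, which encodes PUMA, was at 4.47, 4.42, 3.31 and 3.46 against 7.35, 7.52, 5.03 and 6.48 (log2 2.77, SE 0.32). No spleen library of these 3 genes fell among the LSK libraries. Bmf rose by 2.22 (SE 0.23) and Bad by 1.25 (SE 0.23). The call of Bid (log2 0.97, SE 0.27) was lost without LSK MxCre replicate 1 (0.88) or 2 (0.83). The effector Bax was at 4.97, 5.0, 5.02 and 5.11 against 7.12, 7.15, 6.68 and 7.27 (log2 2.05, SE 0.18, adjusted p = 0.000125), and Bak1 at 5.42, 5.66, 5.41 and 5.41 against 6.16, 6.75, 6.36 and 6.75 (log2 1.05, SE 0.19). Bok, the effector called lower, was at 1.86, 2.19, 1.71 and 2.08 against -0.69, -0.50, 0.13 and -0.15 (log2 -2.30, SE 0.40). With library size alone the differences of Bcl2l1, Bid, Bad and Bak1 were 0.64, 0.10, 0.38 and 0.18 and none of them was called, and in the Ptpn11D61Y/+ libraries alone neither Bcl2 (-0.82) nor Bcl2l1 (0.90) was called.

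**Figure D3:**
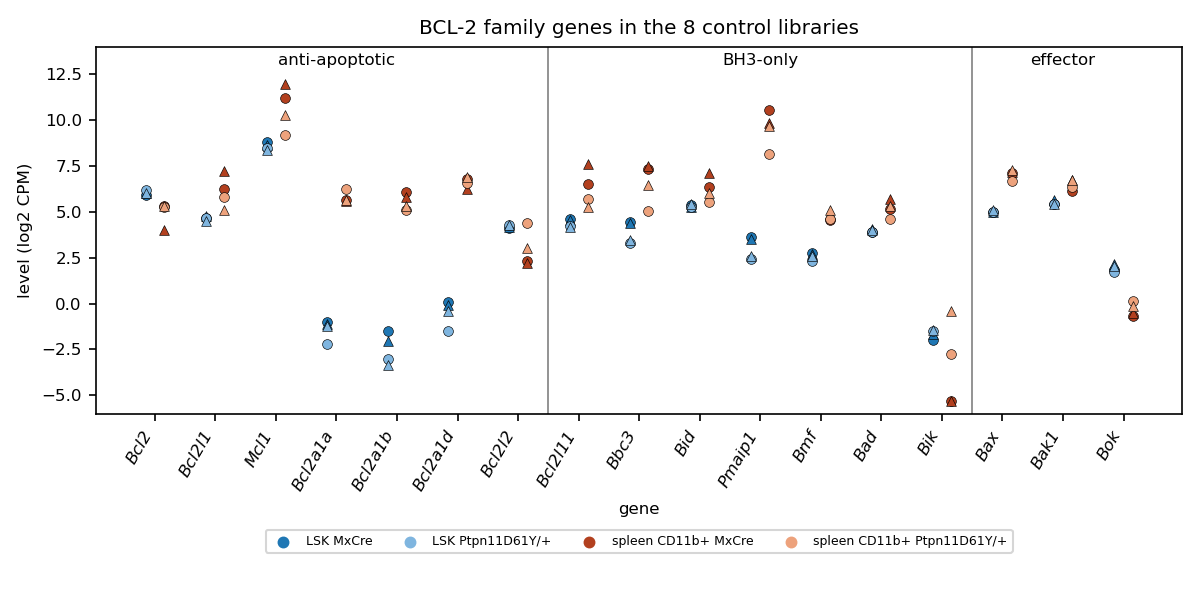
Levels (log2 CPM) of the 17 BCL-2 family genes tested in the 8 control libraries, in blue for LSK cells and red for spleen CD11b+ cells, dark for MxCre and light for Ptpn11D61Y/+, with a circle for replicate 1 and a triangle for replicate 2. Mcl1, Pmaip1, Bax and the Bcl2a1 copies lie higher in every spleen library, and Bcl2 and Bok lie lower in every spleen library.

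SHP2 relays signals from growth factor receptors to RAS and ERK. Of 23 genes of this pathway 11 were called higher and 4 lower (Cbl, Sos1, Spred1 and Rasa1), with a median of 0.63 that was -0.22 with library size alone. Nras, a RAS GTPase, was at 6.16, 6.25, 6.27 and 6.14 log2 CPM in LSK cells and at 7.99, 7.11, 6.87 and 6.55 in spleen CD11b+ cells (log2 0.97, SE 0.27), and its call was lost without either LSK MxCre library (0.84 and 0.88) or with library size alone (0.15). Cbl, a ubiquitin ligase that ends receptor signaling, was at 6.27, 6.27, 5.71 and 5.56 against 3.41, 4.84, 5.09 and 3.88 (log2 -1.5, SE 0.40). Of 12 genes that follow ERK activity 3 were called higher and 2 lower (median -0.04, from -0.38 to 0.17 with 1 library left out). Spry1, a feedback inhibitor of RAS, was at 4.84, 4.93, 4.41 and 4.44 against 2.57, 2.26, 0.89 and 1.59 (log2 -2.81, SE 0.27). Dusp6, the ERK phosphatase, was at 6.92, 6.80, 6.15 and 6.72 against 8.84, 8.52, 5.59 and 6.89, not called over both genotypes (log2 0.88, SE 0.47, adjusted p = 0.14). Without spleen Ptpn11D61Y/+ replicate 1 it was called, at 1.28, while without LSK MxCre replicate 1, LSK MxCre replicate 2 or LSK Ptpn11D61Y/+ replicate 2 only 3 of the 12 were called.

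Immediate-early genes, which respond to signals and to the handling of cells within minutes, were called higher in spleen CD11b+ cells in 13 of 21 cases and lower in none (median 1.80). Every spleen library lay above every LSK library for only 5 of the 21, a share close to the 24.5% of all genes. Junb was at 9.61, 9.43, 8.93 and 9.03 log2 CPM in LSK cells and at 14.18, 14.16, 9.49 and 12.42 in spleen CD11b+ cells (log2 3.63, SE 0.72), with 1 spleen library among the LSK values. Fos was at 11.77, 11.63, 11.44 and 11.54 against 10.38, 11.03, 8.68 and 11.50, not called (log2 -0.88, SE 0.52, adjusted p = 0.175) but called without spleen Ptpn11D61Y/+ replicate 2 (-1.63). Egr1 was at 10.76, 10.21, 10.42 and 10.55 against 10.77, 10.94, 8.68 and 10.67, not called (log2 -0.08, SE 0.43, adjusted p = 0.889). In all 3 genes spleen Ptpn11D61Y/+ replicate 1, the library with 3.79% mitochondrial counts, was the lowest spleen library. The part of cell handling in these levels was not tested.

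Markers of other lineages were present in both fractions. Of 11 B cell markers 3 were called higher in spleen CD11b+ cells (Ms4a1, Cd79b and Blk) and none lower (median 2.55), a share close to the 26.9% of all genes called higher. The median was 0.21 in the MxCre libraries alone and 5.39 in the Ptpn11D61Y/+ libraries alone. Their summed level, in CPM of the library total, was 16244, 7696, 34093 and 29792 in LSK cells and 1863, 315, 23160 and 7431 in spleen CD11b+ cells, and Ighm alone made up 99.2% of the sum in LSK and 85.6% in spleen CD11b+ cells, so that within each genotype the sum was higher in LSK cells while the list median was positive. Ms4a1, which encodes CD20, was at 3.08, 2.15, 1.82 and 1.87 log2 CPM against 4.74, 2.68, 7.46 and 7.45 (log2 3.5, SE 1.06, adjusted p = 0.0222). It was highest in the Ptpn11D61Y/+ spleen libraries, while spleen MxCre replicate 2 fell among the LSK libraries, and its call was lost without LSK Ptpn11D61Y/+ replicate 1 (2.64) or 2 (2.65) and with library size alone (2.70). The number of B cell markers called was 1 without either LSK Ptpn11D61Y/+ library, 5 without LSK MxCre replicate 1 or spleen Ptpn11D61Y/+ replicate 1 and 9 without spleen MxCre replicate 2. Immunoglobulin segments held 5.94%, 3.31%, 8.70% and 11.7% of the LSK counts and 0.699%, 0.0724%, 4.38% and 1.34% of the spleen counts, and 152 of 229 segments tested were called lower and none higher. Ighm, Igkc and Igha were the 3 most abundant genes of the LSK libraries by share of counts, at 2.18%, 1.93% and 1.6% on average. The share of these transcripts that came from B or plasma cells in the LSK sort, and their part in the results above, was not tested.

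Of 10 T cell markers 5 were called higher and none lower (median 2.5, with 0.84 in the MxCre and 3.87 in the Ptpn11D61Y/+ libraries alone), with summed levels of 57.1, 58.1, 28.9 and 34.8 CPM in LSK cells and 37.2, 26.3, 313 and 147 in spleen CD11b+ cells. Their most abundant gene was Lck in LSK cells (66.9% of the sum) and Cd4 in the spleen libraries (67.1%). Cd3e, Cd3g, Trac, Bcl11b and Lck were not called, and only 2 members were called without either LSK Ptpn11D61Y/+ library. Of 9 NK cell markers 6 were called higher and 1, Nkg7, lower, with summed levels of 110, 98.0, 131 and 126 CPM against 51.5, 26.4, 74.9 and 226, led by Nkg7 in LSK (90.8% of the sum) and Gzma in spleen CD11b+ cells. Of 13 erythroid genes 3 globins were called higher and 5 genes lower. Their median was -1.0, but -1.64 in the MxCre and 1.24 in the Ptpn11D61Y/+ libraries alone. With 1 library left out it ran from -1.39 to 0.04. Their summed levels were 2871, 1732, 851 and 752 CPM against 2562, 703, 5773 and 1132. Car2 led them in LSK cells and Hba-a1 in spleen CD11b+ cells. The number called was 5 without LSK MxCre replicate 2 and 3 without either LSK Ptpn11D61Y/+ library. Of 11 platelet and megakaryocyte genes 5 were called lower and none higher, with summed levels of 549, 542, 1062 and 851 CPM against 162, 277, 142 and 113, led by Nfe2. Of 10 genes of eosinophils, basophils and mast cells 3 were called lower, a share close to the 30.1% of all genes, and 1, Ccr3, higher. Their summed levels were 408, 373, 613 and 617 CPM against 152, 70.01, 143 and 427. Gata2, also on the stem cell list and called lower, led the sum in LSK cells (65.8%). Prg2 led it in spleen CD11b+ cells (54.3%). Of 8 stroma and endothelium genes 1 was called lower and none higher, with summed levels of 289, 323, 233 and 203 CPM against 96.3, 47.7, 133 and 100, led by Pecam1, and 3 were called without spleen Ptpn11D61Y/+ replicate 1 and 2 without LSK Ptpn11D61Y/+ replicate 2. No marker of these lists was at 0 in all 4 libraries of either cell type. Their part in the differences between the fractions was not tested.

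**Figure D4:**
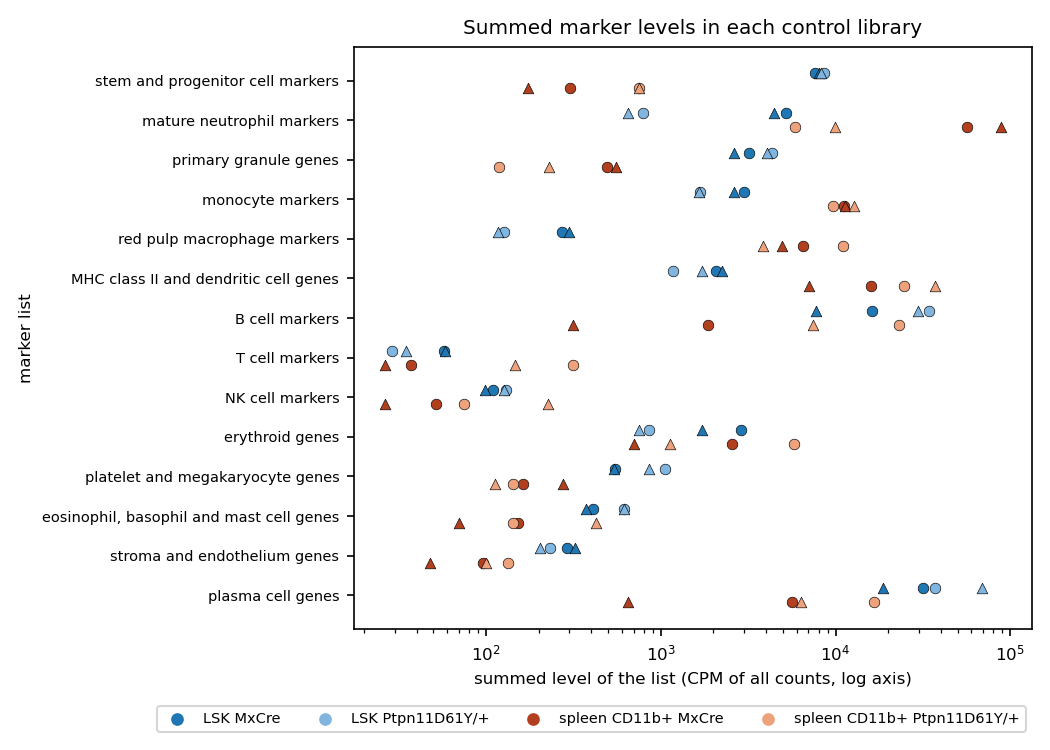
Summed levels (CPM of the library total, log axis) of the marker lists in the 8 control libraries, with blue for LSK and red for spleen CD11b+ cells, dark for MxCre and light for Ptpn11D61Y/+, circles for replicate 1 and triangles for replicate 2. The mature neutrophil sum is 56656 and 88713 in the MxCre spleen libraries and 5860 and 9965 in the Ptpn11D61Y/+ spleen libraries, while the B cell sum is lowest, at 315, in spleen MxCre replicate 2.

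Some marker lists also differed between the control genotypes within a fraction. The summed level of mature neutrophil markers was 5208, 4470, 792 and 651 CPM in LSK cells and 56656, 88713, 5860 and 9965 in spleen CD11b+ cells, with S100a9 the most abundant gene in both. Both MxCre libraries were above both Ptpn11D61Y/+ libraries for 20 of 20 neutrophil markers in LSK cells and for 20 of 20 in spleen CD11b+ cells, while 29.9% and 22.5% of all genes tested had this order in the 2 cell types. For B cell markers both MxCre libraries were below both Ptpn11D61Y/+ libraries in 11 of 11 in spleen CD11b+ cells, against 34.8% of all genes, whereas in LSK cells 7 of 11 had the MxCre libraries above and 1 had them below. For MHC class II and dendritic cell genes the sums were 2063, 2238, 1171 and 1722 CPM against 15858, 7022, 24743 and 37007, with both MxCre libraries above for 14 of 18 in LSK cells and below for 9 of 18 in spleen CD11b+ cells. The sums of red pulp macrophage markers were 273, 298, 127 and 117 against 6554, 4947, 11087 and 3842. In LSK cells both MxCre libraries were above for 12 of these 16 markers and below for 1, while in spleen CD11b+ cells the genotypes interleaved, with 2 of 16 markers separated in each direction. With 2 libraries per genotype and cell type, genotype and other differences between these libraries cannot be told apart.

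Whether the spleen to LSK difference itself differed between the control genotypes was tested by the interaction of cell type and genotype. It was called for 516 of 18552 genes (2.78%), 389 (2.10%) with a more positive difference in Ptpn11D61Y/+ and 127 (0.685%) in MxCre. This split depends on the scaling: with library size alone it was 3036 and 208. The median interaction of all genes moved from 0.23 to 0.87. By the rule for this test, the genes named were Dntt, Spib, Smo, Cd22 and Angpt1 in the first direction and Hdc, Slpi, Csf1, Gadd45a and Rab20 in the second. Of the 491 list members tested outside the sex-linked genes 38 (7.74%) were called, 31 and 7 in these directions. B cell markers made up 6 of the 38 (Pax5, Ebf1, Cr2, Fcer2a and Blk among them). For Pax5, the factor that holds B cell identity, the spleen to LSK difference was 0.19 in MxCre and 7.2 in Ptpn11D61Y/+ libraries, an interaction of 7.01 (SE 0.94, adjusted p = 0.0275). Spib, an ETS factor of B and plasmacytoid dendritic cells, was at 3.45, 2.85, 0.43 and -0.19 log2 CPM in LSK cells and at 4.79, 3.77, 7.95 and 7.73 in spleen CD11b+ cells, an interaction of 6.52 (SE 0.60). Stem and progenitor cell markers made up 4 (Kit, Ly6a, Ctnnal1 and Angpt1), monocyte markers 4 (Fcgr1, Ace, Cd300e and Ifitm6) and MHC class II and dendritic cell genes 3 (Ciita, Irf8 and Cd209a). Neutrophil markers made up another 4 (Ly6g, Mmp8, Mmp9 and Ltf), with Ltf at 4.43 in MxCre and 8.13 in Ptpn11D61Y/+ libraries, an interaction of 3.71 (SE 0.65, adjusted p = 0.0413). These calls depend on single libraries: without any 1 of the 4 LSK libraries or without spleen Ptpn11D61Y/+ replicate 1 edgeR called 0 genes, and without spleen MxCre replicate 1, spleen MxCre replicate 2 or spleen Ptpn11D61Y/+ replicate 2 it called 3395, 5427 and 1966. Each of these fits left 1 group with a single library, which was assumed to vary like the other groups.

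**Figure D5:**
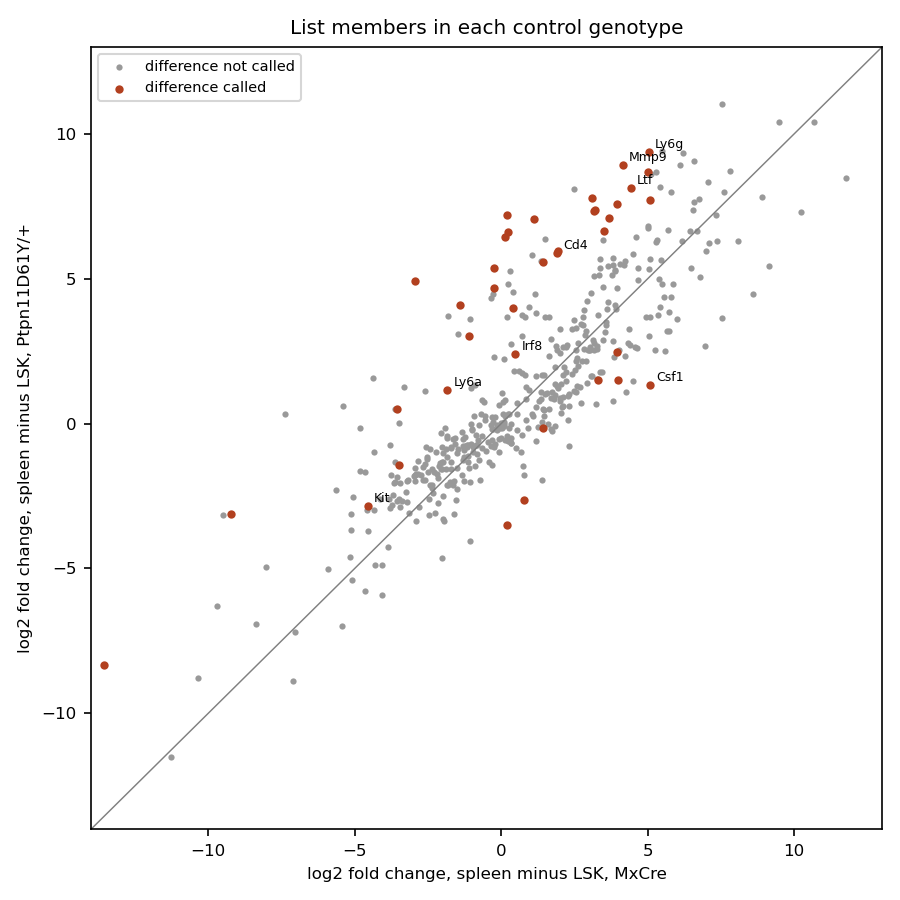
Log2 fold change of spleen CD11b+ over LSK cells in the MxCre libraries (x axis) against that in the Ptpn11D61Y/+ libraries (y axis) for 491 list members, of which 3 lie outside the axes, with the diagonal marking equality. The 38 members with a called difference between the genotypes are marked, and they include Ltf at 4.43 and 8.13.

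To see which differences went with the spleen rather than with CD11b+ cells of either organ, the 4 spleen CD11b+ libraries were set against the 4 marrow CD11b+ control libraries in a fit of 12 control libraries. Marrow CD11b+ MxCre replicate 2 held both Xist (6.22 log2 CPM) and the Y-linked Ddx3y (3.22). In this comparison 1349 of 18866 genes (7.15%) were called, 601 (3.19%) higher and 748 (3.96%) lower in spleen, and the median of all genes was 0.02. With library size alone the balance turned, with 766 called higher and 608 lower. It also turned without spleen MxCre replicate 1, marrow MxCre replicate 2 or either spleen Ptpn11D61Y/+ library. Of 18 MHC class II and dendritic cell genes 10 were called higher in spleen and none lower (median 2.19). Cd74 was at 11.82, 10.30, 11.43 and 11.24 log2 CPM in marrow CD11b+ cells and at 13.05, 12.16, 13.22 and 13.90 in spleen CD11b+ cells on the scale of this fit (log2 1.89, SE 0.44, adjusted p = 0.0263), but its call was lost in 5 of the 8 fits that left out 1 spleen or marrow library (1.61 to 1.94 in these). Flt3 was at 1.93, 3.50, 3.42 and 3.29 in the marrow and at 6.69, 5.16, 6.43 and 7.09 in the spleen (log2 3.34, SE 0.49, adjusted p = 0.00447). Flt3 was thus lower in spleen CD11b+ cells than in LSK cells and higher than in marrow CD11b+ cells. Of 8 primary granule genes 6 were called lower in spleen and none higher (median -3.32). Mpo was at 8.31, 10.73, 9.89 and 9.55 in marrow CD11b+ cells and at 6.10, 5.80, 3.70 and 5.15 in spleen CD11b+ cells (log2 -4.49, SE 0.60, adjusted p = 0.00357). All 13 erythroid genes (median -5.82) and 29 of 39 G2/M genes (median -2.60) were called lower in the spleen. Of the 20 mature neutrophil markers and the 16 red pulp macrophage markers none was called, with medians of -2.36 and 1.44. The neutrophil count changed without spleen MxCre replicate 2 (median -2.76), and both counts changed without marrow MxCre replicate 1. Cd5l was at 10.92 in that library against 5.32, 4.33 and 4.70 in the other marrow libraries and 8.95, 8.88, 9.23 and 7.88 in the spleen, and C1qa was at 12.56 against 7.19, 5.95 and 5.90 in the marrow and 11.07, 10.43, 9.99 and 9.06 in the spleen. The library stood above every spleen library for both genes, and the other marrow libraries stood below them. Without it 3705 of all genes were called (19.6%), 9.41% higher and 10.2% lower, and among them 13 of the 16 red pulp macrophage markers were higher in spleen (median 3.32) and 11 of the 20 neutrophil markers lower (median -2.91). With any 1 of the 8 spleen and marrow libraries left out, the number called ranged from 3 to 12 higher for MHC class II and dendritic cell genes, and from 2 to 8 lower for primary granule genes, 6 to 13 for erythroid genes and 0 to 36 for G2/M genes. Bcl2l1 was lower in spleen than in marrow CD11b+ cells (log2 -2.66, SE 0.47, adjusted p = 0.00939) and stayed called without any 1 of these libraries. Pmaip1 was higher (log2 2.38, SE 0.56, adjusted p = 0.0279), but its call was lost without spleen MxCre replicate 1 (2.31), marrow Ptpn11D61Y/+ replicate 1 (2.25) or 2 (2.28), or spleen Ptpn11D61Y/+ replicate 2 (2.01). Named by the rule for this comparison, C6, Adamdec1, Fscn1, Pla2g2d and Tbc1d4 led the genes higher in spleen and Rhd, Slc38a5, Rhag, Ypel4 and Fn3k those lower. Without marrow MxCre replicate 2 the count of calls was 513, without marrow Ptpn11D61Y/+ replicate 1 518 and replicate 2 622, and without spleen Ptpn11D61Y/+ replicate 1 820 and replicate 2 472.

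The control contrast was also set against the same contrast in S3 mice, in a fit of all 21 libraries. The difference between the S3 contrast and the mean control contrast was called by edgeR for 0 of 19555 genes (0.00%), although 1680 had an unadjusted p under 0.05, and DESeq2 called 289. Without spleen MxCre replicate 2 edgeR called 88. The median difference between the contrasts was -4.73 for the 9 NK cell markers, 4.57 for erythroid genes and 1.5 for stem and progenitor cell markers. It was -1.49 for eosinophil, basophil and mast cell genes and -1.26 for pattern recognition receptors. For inflammatory cytokines it was -1.12 and for MHC class II and dendritic cell genes -1.11, beside 0.17 for all genes. The NK cell markers summed to only 26.4 to 226 CPM in the control spleen libraries. For Mcl1 the difference was -0.05 (SE 0.51, adjusted p = 1) and for Mpo -0.23 (SE 0.70, adjusted p = 0.987). A p that misses the threshold does not show that S3 and control cells were alike.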

How the data were processed

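RNA was measured in 21 libraries, of which the 8 spleen CD11b+ and LSK control libraries gave the main comparison. Per the labels and the study's methods, the authors isolated RNA with a micro-column kit, prepared stranded mRNA libraries, trimmed reads with Trim Galore 0.6.5 and mapped them with STAR 2.5.3a to mm10. The counting program, the annotation release and the use of strand are not given in the sources used here, so genes that overlap others or have near-identical copies are uncertain. The authors deposited raw counts per Ensembl gene for each library, with no normalization, and these counts were used as deposited. Of 45706 identifiers 45143 had a symbol and a position in the GRCm38 annotation.

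The analysis used R 4.3.3 and edgeR 4.0.16 with filterByExpr over the groups, TMM factors and robust quasi-likelihood tests, with Benjamini-Hochberg adjustment over all genes tested and a threshold of 0.05. The model of the main comparison held control genotype and cell type as terms. The other fits were the interaction of cell type and genotype, spleen against marrow CD11b+ cells in 12 control libraries, and the S3 contrast against the mean control contrast in 21 libraries. A standard error is the size of an estimate divided by the square root of its F. TMM factors ran from 1.31 to 1.36 in LSK and from 0.535 to 0.985 in spleen libraries. Library measures were compared with two-sided exact permutation tests. For a gene at 0 in a library, up to 3 counts are allowed, which is 0.0210 to 0.0851 CPM depending on the library, and such limits cover counting error only.

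The members and the 31 gene lists were chosen with earlier results of these data known, so their counts and medians are descriptions. Named genes were list members, the 12 largest changes in each direction (called, protein coding, a median of at least 6 log2 CPM in the higher cell type, no overlap), up to 8 genes in each direction that had no library of 1 cell type above 3 counts, the 10 most abundant genes and the 5 largest changes of the genotype and marrow comparisons. A few genes that these rules name are not reported here. The list of plasma cell genes was added after their values were seen. Promoter letters came from RefSeq (GRCm38.p6). The alternatives were DESeq2 1.42.0, limma-voom (limma 3.58.1), RLE factors, library size alone, other filters, other sets of samples, each genotype alone, a replicate block and leaving out each library in turn.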

Additional observations from a re-analysis of the deposited data

Results flagged for a closer look

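In 9 sets of 4 libraries of 1 cell type, the highest or lowest library stood apart from the others by Dixon's criterion, which by chance picks about 1 in 20 sets, and 294 sets were examined. Mitochondrial genes held 3.79% of the counts in spleen Ptpn11D61Y/+ replicate 1 against 0.317% to 0.641% in the other spleen libraries. The same library was lowest for Egr1, at 8.68 log2 CPM against 10.67 to 10.94, and highest for Bcl2a1a, at 6.25 against 5.60 to 5.67. Spleen MxCre replicate 2 was lowest for Bcl2, at 4.02 against 5.28 to 5.35, and highest for Myb, at 3.64 against 2.93 to 3.03. Among LSK libraries, Ptpn11D61Y/+ replicate 1 was lowest for Cd74, at 8.24 against 9.004 to 9.11, and MxCre replicate 2 was highest for Bak1, at 5.66 against 5.41 to 5.42. For 2 genes near 0, a few counts in 1 library gave the highest value while the others were at 0 counts: Retnla in LSK Ptpn11D61Y/+ replicate 1 (1 count, -4.98 log2 CPM) and Vipr2 in spleen Ptpn11D61Y/+ replicate 2 (3 counts, -3.65 log2 CPM).

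For 13 of the 129 genes examined library by library, the spleen to LSK difference was larger or smaller in Ptpn11D61Y/+ than in MxCre libraries by the interaction test of edgeR (adjusted p from 0.0229 to 0.0453). Of all genes tested 2.78% were called in this test. The 129 genes were chosen for this text, some of them, such as Spib, by the rule for this same test, so the count describes chosen genes. The interaction, Ptpn11D61Y/+ minus MxCre on the log2 scale, was 1.70 for Kit (-4.55 in MxCre and -2.86 in Ptpn11D61Y/+ libraries) and 3.02 for Ly6a (-1.85 and 1.17). It was 5.21 for Angpt1 and 7.58 for Dntt, which had 0 or 1 counts in the MxCre spleen libraries, so that these values depend on the prior count of the fit. For neutrophil genes it was 3.71 for Ltf, 4.34 for Ly6g (5.04 and 9.39), 4.17 for Mmp8 (3.20 and 7.36) and 4.78 for Mmp9 (4.14 and 8.92). For genes of other lineages it was 7.01 for Pax5 (0.19 and 7.2), 6.52 for Spib (1.19 and 7.71), 3.97 for Cd4 (1.91 and 5.88) and 6.31 for the globin Hbb-bs (0.11 and 6.43). For Irf8 it was 1.93 (0.48 and 2.41). None of these was called when any 1 LSK library or spleen Ptpn11D61Y/+ replicate 1 was left out, although each kept its sign, from 1.63 to 1.80 for Kit, 3.69 to 6.09 for Ly6g, 3.23 to 4.43 for Ltf and 6.19 to 6.88 for Spib. Such a fit leaves 1 group with a single library, so that the spread comes from the other groups.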

How the results depend on the processing

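The spleen to LSK comparison called between 7456 and 12292 genes under the alternatives and 8374 to 11371 with 1 library left out, and no gene called in both the main and an alternative setting changed sign. With 2 libraries per genotype and cell type, the genotype results rest on few degrees of freedom. The interaction called 3562 genes in DESeq2, 3244 with library size alone, 950 with no filter and 0 to 5427 with 1 library left out. Spleen against marrow CD11b+ cells called 3450 in DESeq2 and 472 to 3705 with 1 library left out. The S3 difference called 289 in DESeq2 and 0 to 88 with 1 library left out. The cause of these changes was not tested. The difference in genes detected ran from -5543.75 to -3499.75 with 1 library left out, and without LSK Ptpn11D61Y/+ replicate 1 its exact permutation p rose to 0.0571. The difference in mitochondrial share ran from -0.209 to 0.947 percentage points and was negative without spleen Ptpn11D61Y/+ replicate 1.

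Equal replicate numbers were not taken to pair the control libraries, since the labels do not tie them to animals. Deviations from the group means correlated between LSK and spleen CD11b+ cells at -0.0075 in MxCre and 0.0587 in Ptpn11D61Y/+. Between marrow and spleen CD11b+ cells they correlated at 0.0577 and -0.161. With 2 libraries per group, such a correlation cannot tell whether libraries share an animal. Pairing was thus not settled where sex-linked genes do not separate the libraries. For the 2 S3 numbers present in all 3 cell types, the correlation was 0.0578 between LSK and spleen and 0.334 between marrow and spleen, and the labels do not say what these numbers mark. With the replicate number as a block, 8308 genes were called for spleen against LSK, 641 for spleen against marrow CD11b+ cells (664 with the numbers of the marrow Ptpn11D61Y/+ libraries crossed, a choice made after seeing the data) and 0 for the S3 difference.

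Some log2 differences changed sign, nearly all of them not called. With library size alone they were -0.083 for Prom1, -0.63 for Padi4, -0.14 for Cd163, -0.14 for Xcr1, -0.021 for Tlr4, -0.15 for Lamp2 and -0.15 for Bub3, which was called otherwise. In Ptpn11D61Y/+ libraries alone they were 1.17 for Ly6a, -0.17 for Prom1, -0.61 for Padi4, 0.33 for Bik and -0.075 for Dusp6. In MxCre libraries alone they were 0.35 for Egr1 and 0.35 for Runx1. Without the genotype term Ly6a was at 0.50. With 1 library left out the range was -0.86 to 0.28 for Ly6a, -0.37 to 0.66 for Padi4, -0.10 to 0.98 for Xcr1, -0.42 to 0.25 for Egr1 and -0.30 to 0.071 for Runx1. Over all genes described and all settings, 2240 values kept their direction and side of the threshold, 114 lost a call, 58 gained one and 22 changed sign.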

Other observations

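Of the genes tested, 1.31% had at most 3 counts in every LSK library and 4.47% at most 3 in every spleen CD11b+ library. Those with the highest level in spleen CD11b+ cells were Kcnj16, Hs3st2, Pcolce2, Retnla, Cxcl13, Dao, Coch and Slc44a5. Kcnj16, a potassium channel, had 0, 2, 2 and 1 counts in LSK cells and 1349, 725, 1635 and 812 in spleen CD11b+ cells, a ratio of 2229 after scaling with a 95% counting interval from 955 to 6869. Cxcl13, the chemokine that draws B cells to follicles, had 2, 0, 2 and 0 counts against 108, 204, 353 and 159, a ratio of 508 (198 to 1868). Retnla, a secreted protein of macrophages under IL-4, had 0, 0, 1 and 0 counts against 589, 910, 35 and 122, so that the MxCre spleen libraries held most of them.

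Those with the highest level in LSK cells were Mecom, Hnf4a, Il17re, Mc5r, Trpc6, Vipr2, Sstr2 and Zan. Hnf4a, a nuclear receptor best known from liver and gut, had 3639, 3870, 2239 and 2463 counts in LSK cells and 0 in each spleen CD11b+ library, which makes it at least 413-fold higher in LSK cells when each spleen library is allowed 3 counts. Trpc6, a calcium channel, had 1151, 688, 4281 and 2513 counts against 0 in each, at least 292-fold higher. Il17re, an IL-17 receptor chain, had 3102, 2679, 2923 and 2400 against 0, 2, 0 and 3, and Vipr2, a receptor for vasoactive intestinal peptide, 1461, 1241, 2272 and 1730 against 0, 0, 0 and 3.

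Of 10 plasma cell genes, chosen after their values were seen, 3 were called lower in spleen CD11b+ cells (Jchain, Sdc1 and Igha) and 1, Irf4, higher, with a median of -1.22. Their summed level was 31566, 18733, 37102 and 68584 CPM in LSK cells and 5630, 649, 16541 and 6355 in spleen CD11b+ cells, with Igkc the most abundant gene in both. Igha, the heavy chain of IgA, was at 13.39, 12.81, 12.70 and 14.52 log2 CPM in LSK cells and at 10.74, 8.30, 8.22 and 10.12 in spleen CD11b+ cells. Jchain, which joins IgA or IgM units, was at 10.70, 10.12, 11.30 and 12.05 against 9.34, 5.79, 10.07 and 8.07. Of 22 T cell receptor segments tested, 1 was called higher and 4 lower.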
